A study of Mus musculus with 36 samples.

Results

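Cre-positive diaphragm was compared with Cre-positive spinal cord in mice 10 days after birth (P10). The libraries were chosen by their labels alone, 3 of diaphragm and 3 of spinal cord, which makes 6 of the 36 libraries of the series. Both groups have the genotype ChAT-Cre;Ribo-tag and the same age, and both hold RNA purified by the HA tag. The diaphragm samples are labelled synapse-enriched muscle. The Ribo-tag allele puts an HA tag on the ribosomal protein Rpl22 in cells that have expressed Cre, so that ribosomes of those cells, with the RNA on them, can be pulled out of a tissue homogenate. ChAT-Cre makes Cre under the control of the gene for choline acetyltransferase, the enzyme that makes acetylcholine, so the tag is not specific to motor neurons: other cholinergic cells of the cord carry it too. The study follows the same purification at E15.5, P0.5, P10 and in adults of 2 months, and pairs each age of Cre-positive diaphragm with Cre-negative diaphragm of genotype Ribo-tag, in which no Cre switches the tag on. No Cre-negative spinal cord was analysed here. Nothing in the labels ties a replicate to its own animal or pool, so the p-values reflect the spread among these libraries, which may be technical.

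A motor neuron keeps its cell body in the ventral horn of the spinal cord and sends its axon to muscle, where it ends at the neuromuscular junction and releases acetylcholine. Most of its messenger RNA and ribosomes lie in the cell body, while a smaller pool is carried into the axon. At the junction the muscle fibre clusters acetylcholine receptors under the nerve ending, and the fibre around it is filled with sarcomeres, the contractile units, and with mitochondria. Axons are wrapped in myelin by oligodendrocytes inside the cord and by Schwann cells outside it.

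The deposited values are counts scaled to 1000000 per library (CPM) for 18845 genes. The smallest steps between the values gave depths of 98.4, 94.0 and 97.5 M reads for the 3 diaphragm libraries and of 65.3, 67.8 and 66.3 M reads for the 3 cord libraries. In each of the 2 P10 groups 1 library lay between the other 2 over most genes. Diaphragm replicate 3 came out as 0.647 of replicate 1 plus 0.352 of replicate 2, with residuals 3.35 times counting error, and 78.1% of genes had it between them. Cord replicate 3 came out as 0.513 of replicate 1 plus 0.486 of replicate 2, with residuals 1.81 times counting error and 60.6% of genes between them. The Cre-negative diaphragm had such a library as well, replicate 3, with 82.9% of genes between. The labelled tissues were borne out in all 6 libraries, with the muscle genes Acta1 and Ckm high in diaphragm and Mbp and Nefl, of myelin and neurons, high in cord, while Chat had reads in only 1 diaphragm library. How the intermediate libraries came about was not tested. Where values are given without the intermediate libraries, 1 was left out of every group. The rule picks 1 in each group, even where fewer genes lay between, as in P0.5 cord (48.4%). At P10 this leaves the 2 libraries least alike in each group, so calls can be lost for that alone. Whether an intermediate library is independent of the other 2 is not known. If it is not, the SE and p-values given here are too small.

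Of 14831 genes tested, 10833 (73%) differed between diaphragm and cord, of which 2952 (19.9%) were higher in diaphragm and 7881 (53.1%) higher in cord. The test was limma on log2(CPM + 1), with a Benjamini-Hochberg adjusted p under 0.05, and every log2 difference below is diaphragm minus cord on that scale with its SE. Without the intermediate libraries 8306 of 14346 genes differed, 2011 of them higher in diaphragm. The median difference over all genes was -0.63. CPM is a share of the library total, and in diaphragm a few muscle transcripts took a large part of that total. RLE size factors moved that median to -0.20 and gave 4238 genes higher in diaphragm and 5993 higher in cord. Quantile normalization moved it to 0.06 and gave 5305 and 4979. The named genes that passed the test and turned direction under a scaling, among them Thrsp, Pcna and genes of the respiratory chain described below, had differences between -0.89 and 1.08. A lower level in a bulk library can mean fewer cells of a type or less RNA per cell, and these cannot be told apart here.

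**Figure D1:**
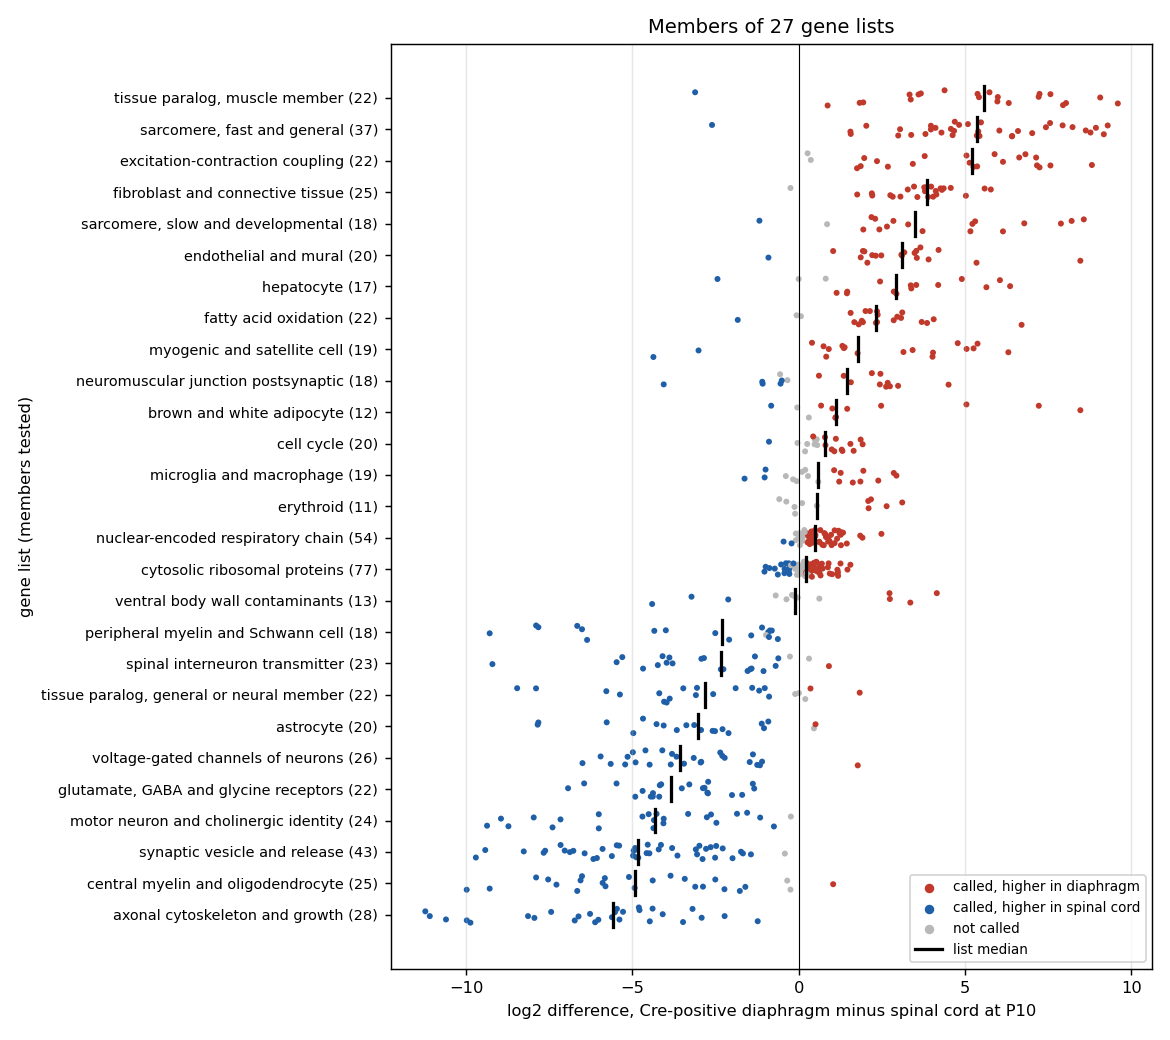
Log2 difference (diaphragm minus spinal cord at P10, log2(CPM + 1) scale, x axis) for the tested members of 27 gene lists (y axis), with 1 point per gene and a bar at each list's median. Neuronal lists lie to the left, with medians of -5.57 for axonal cytoskeleton and -4.83 for synaptic vesicle genes, and the fast sarcomere list lies to the right with a median of 5.36, against -0.63 over all genes tested.

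Genes of motor neuron and cholinergic identity were higher in cord. Of 24 tested, 23 were higher in cord and 0 in diaphragm, with a median difference of -4.31 against -0.63 over all genes. The same counts came out with RLE size factors, and 22 were higher in cord without the intermediate libraries. Together these genes made up 0.429%, 0.399% and 0.414% of the cord libraries and 0.00394%, 0.00307% and 0.00358% of the diaphragm libraries. The Cre-negative diaphragm libraries held 0.0039%, 0.00429% and 0.00438%, which overlaps the range of the Cre-positive ones.

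Chat, the gene for choline acetyltransferase and the one whose control regions drive Cre here, was at 73.8, 56.9 and 63.9 CPM in cord and at 0, 0.0425 and 0 CPM in diaphragm. Its whole diaphragm signal was 4 reads in 1 library, and the Cre-negative diaphragm libraries had 0, 0 and 0 reads. Slc18a3, which loads acetylcholine into vesicles, was at 162, 144 and 151 CPM in cord and 0.061, 0 and 0.144 CPM in diaphragm (log2 difference -7.17 ± 0.19 (SE), adjusted p = 1.5e-17). Slc5a7, which takes choline back into the nerve ending, was at 67.9, 60.1 and 65.6 CPM in cord and 0.0203, 0.0213 and 0 CPM in diaphragm (log2 difference -6.01 ± 0.11 (SE), adjusted p = 9.3e-20). The 3 cholinergic genes had a level in every cord library and between 0 and 14 reads in any diaphragm library. Isl1, a transcription factor of motor neurons that other cells also express, was at 21.1, 22 and 22 CPM in cord and 0, 0.596 and 0.554 CPM in diaphragm (log2 difference -4.07 ± 0.24 (SE), adjusted p = 6.8e-12). Mnx1, a motor neuron transcription factor, was at 4.97, 5.02 and 5.7 CPM in cord with 0 reads in the 3 diaphragm libraries, at least 168-fold lower against a floor of 3 reads per library.

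Neuropeptide and cytoskeletal markers of motor neurons had the same direction. CPM is not corrected for gene length, so levels are compared between libraries and not between genes. Calca, which encodes calcitonin gene-related peptide, was at 850.1, 737 and 808 CPM in cord and 0.152, 0.117 and 0.349 CPM in diaphragm (log2 difference -9.37 ± 0.44 (SE), adjusted p = 1.3e-13). Calcb, its close relative, was at 463, 543 and 506 CPM in cord and 0.305, 0 and 0.277 CPM in diaphragm. Prph, the intermediate filament peripherin, was at 1446, 1376 and 1416 CPM in cord and 0.305, 4.36 and 2.3 CPM in diaphragm (log2 difference -8.96 ± 0.54 (SE), adjusted p = 8.6e-12). The diaphragm libraries differed among themselves for Prph, with replicate 2 highest and replicate 1 lowest, yet all lay far below the cord libraries. Spp1, another gene of the motor neuron list, was at 452, 351 and 386 CPM in cord and 0.925, 0.0851 and 0.872 CPM in diaphragm. Chodl, a marker of fast motor neurons that is also made by muscle, was at 224, 216 and 226 CPM in cord and 7.54, 14.1 and 8.7 CPM in diaphragm (log2 difference -4.37 ± 0.24 (SE), adjusted p = 2.4e-12). Ache, the acetylcholinesterase made by both partners of the junction, was at 132, 104 and 118 CPM in cord and 9.97, 2.64 and 7.95 CPM in diaphragm (log2 difference -4.06 ± 0.46 (SE), adjusted p = 1.5e-07). Cre-negative diaphragm had 14.4, 21.6 and 19.5 CPM of Ache, above every Cre-positive diaphragm library (adjusted p = 0.21 by limma).

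**Figure D2:**
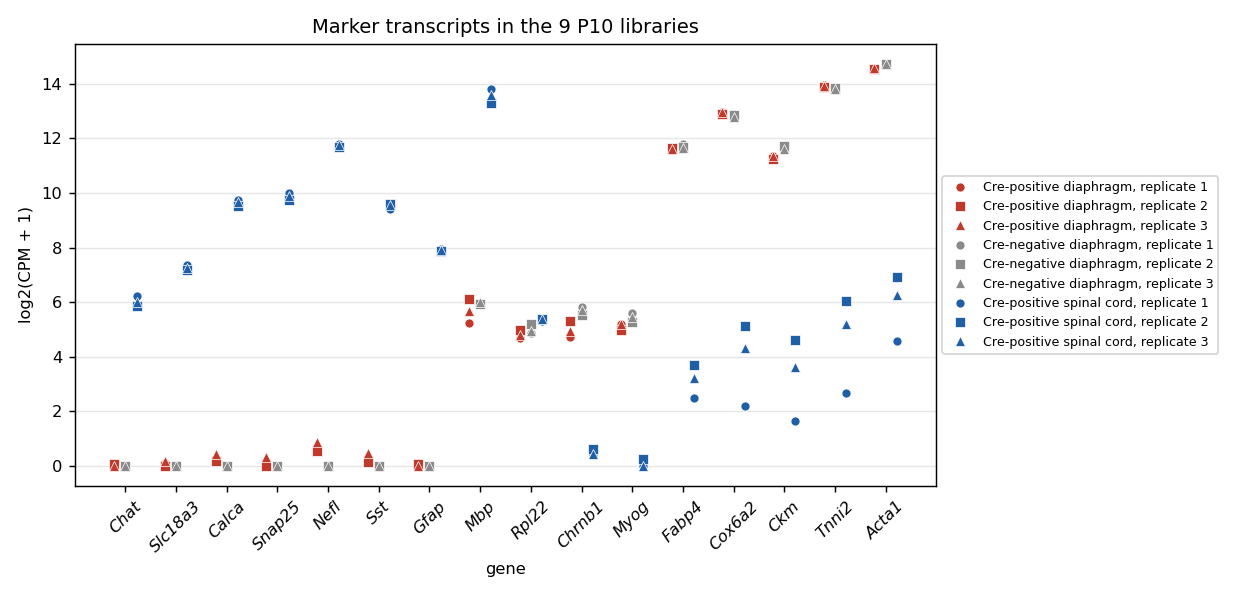
Level of 16 genes as log2(CPM + 1) (y axis) in each of the 3 Cre-positive diaphragm, 3 spinal cord and 3 Cre-negative diaphragm libraries at P10, with 1 point per library. Chat, Slc18a3 and Calca stand at or near 0 in both kinds of diaphragm and above it in all cord libraries, and Acta1, Ckm and Tnni2 show the opposite order.

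Transcripts of cord neurons other than motor neurons were in the cord libraries too. Of 23 tested genes of spinal interneuron transmitters and identity, 20 were higher in cord and 1 in diaphragm, with a median of -2.34. Sst, the peptide somatostatin of dorsal horn interneurons, was at 679, 784 and 750.2 CPM in cord and 0.264, 0.106 and 0.369 CPM in diaphragm (log2 difference -9.21 ± 0.28 (SE), adjusted p = 1.3e-16). Gad1, which makes the inhibitory transmitter GABA, was at 28.8, 21.8 and 27 CPM in cord and 0.0508, 0 and 0.0718 CPM in diaphragm. Both mark neurons that, as far as is known, mostly do not make acetylcholine. Tac1, the precursor of substance P, was at 37.5, 49.9 and 44.1 CPM in cord with 0 reads in diaphragm, at least 1411-fold lower there. Npy, neuropeptide Y, was at 38.1, 47.9 and 44.1 CPM in cord and 0, 0 and 0.39 CPM in diaphragm. Penk, the precursor of enkephalins, was at 164, 149.5 and 155 CPM in cord and had a level in every diaphragm library, at 7.64, 11.5 and 9.95 CPM. Lbx1 was the member higher in diaphragm, at 4.59, 6.01 and 5.31 CPM against 2.6, 2.23 and 2.22 CPM (log2 difference 0.91 ± 0.17 (SE), adjusted p = 6.7e-05). It is a transcription factor of dorsal spinal neurons and also of migrating muscle precursors. How far tagged cells, and how far other cells of the cord, gave the interneuron transcripts was not tested, since no Cre-negative cord was analysed.

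The machinery of transmitter release was higher in cord almost throughout. Of 43 synaptic vesicle and release genes tested, 42 were higher in cord and 0 in diaphragm, with a median of -4.83, and the counts were the same with RLE size factors, with quantile normalization and without the intermediate libraries. Snap25, a membrane protein of the fusion machinery, was at 1022, 854 and 943 CPM in cord and 0.132, 0 and 0.236 CPM in diaphragm (log2 difference -9.71 ± 0.13 (SE), adjusted p = 1.4e-21). Cplx1, complexin, which clamps that machinery, was at 834, 700.0 and 784 CPM in cord and 0.173, 0.128 and 0.0615 CPM in diaphragm (log2 difference -9.43 ± 0.19 (SE), adjusted p = 1.9e-19). Syp, the vesicle protein synaptophysin, was at 378, 329 and 371 CPM in cord and 0.0203, 0.277 and 0.215 CPM in diaphragm. Each had its 3 cord libraries close together and its diaphragm libraries under 1 CPM. Sncg, gamma-synuclein, had a level in every diaphragm library, at 12.9, 2.88 and 9.92 CPM against 1657, 1653 and 1658 CPM in cord (log2 difference -7.63 ± 0.57 (SE), adjusted p = 2.6e-10). Adipose cells also express this gene. Sncb, beta-synuclein, was at 229, 186 and 205 CPM in cord and 0.0407, 0 and 0 CPM in diaphragm.

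Axonal cytoskeleton genes had 1 direction throughout. All 28 tested were higher in cord, in the main test, with RLE size factors, with quantile normalization and without the intermediate libraries, and the median was -5.57. They took 2.09%, 2.00% and 2.06% of the cord libraries and 0.0457%, 0.045% and 0.0457% of the diaphragm libraries. The Cre-negative diaphragm libraries held 0.0476%, 0.0423% and 0.0464%, a range that includes the Cre-positive values. Nefm, the medium neurofilament subunit, was at 4339, 3825 and 4092 CPM in cord and 0.701, 0.425 and 1.02 CPM in diaphragm (log2 difference -11.23 ± 0.16 (SE), adjusted p = 3.5e-21), the largest difference in that direction by the rule used for naming genes. Nefl, the light subunit, was at 3523, 3306 and 3466 CPM in cord and 0.457, 0.457 and 0.81 CPM in diaphragm (log2 difference -11.10 ± 0.24 (SE), adjusted p = 9.5e-19). Nefh, the heavy subunit, was at 1111, 1055 and 1081 CPM in cord and 0.203, 0.0319 and 0.236 CPM in diaphragm (log2 difference -9.87 ± 0.20 (SE), adjusted p = 2.4e-19). The 3 subunits, which assemble together, were each far below 1% of their cord level in diaphragm. Tubb3, neuronal tubulin, was at 1798, 1720.1 and 1768 CPM in cord and 0.173, 1.51 and 0.789 CPM in diaphragm (log2 difference -9.98 ± 0.24 (SE), adjusted p = 4.3e-18). Stmn3, a microtubule regulator, was at 2111, 2141 and 2148 CPM in cord and 0.305, 0.308 and 0.492 CPM in diaphragm (log2 difference -10.61 ± 0.27 (SE), adjusted p = 1.2e-17). For Tubb3 the diaphragm libraries spread more than for Stmn3, with replicate 2 highest.

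Receptors and channels of neurons followed the same direction. All 22 tested receptors for glutamate, GABA and glycine were higher in cord, with a median of -3.83. Glra1, a subunit of the glycine receptor, was at 90.05, 82.1 and 88 CPM in cord with 0 reads in diaphragm, at least 2793-fold lower there. Glrb, its partner, was at 137, 126 and 134 CPM in cord and 0.112, 0 and 0.154 CPM in diaphragm (log2 difference -6.94 ± 0.18 (SE), adjusted p = 1.3e-17). Grin1, the shared subunit of NMDA receptors, was at 45.3, 43 and 44.1 CPM in cord and 0.0102, 0 and 0.0205 CPM in diaphragm. Of 26 voltage-gated channel genes tested, 25 were higher in cord and 1 in diaphragm, with a median of -3.56. Scn8a, the sodium channel of nodes of Ranvier, was at 68.6, 60.2 and 64.3 CPM in cord and 0.285, 0.245 and 0.359 CPM in diaphragm (log2 difference -5.66 ± 0.11 (SE), adjusted p = 1.2e-19). Scn4b, a sodium channel beta subunit that muscle also makes, was the member higher in diaphragm, at 64.2, 53.7 and 64.5 CPM against 20.9, 13.4 and 17.4 CPM (log2 difference 1.78 ± 0.16 (SE), adjusted p = 5.7e-09).

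Glial transcripts were abundant in the cord libraries. Of 25 central myelin and oligodendrocyte genes tested, 22 were higher in cord and 1 in diaphragm, with a median of -4.94. They took 2.19%, 1.65% and 1.91% of the cord libraries and 0.00708%, 0.0118% and 0.00913% of the diaphragm libraries. Mbp, myelin basic protein, was at 14489.9, 10216 and 12260.0 CPM in cord and 36.9, 67.6 and 50.3 CPM in diaphragm (log2 difference -7.90 ± 0.50 (SE), adjusted p = 1.6e-11). Mobp, a protein of central myelin, was at 2402, 1572 and 1964 CPM in cord and 1.32, 0.372 and 1.23 CPM in diaphragm (log2 difference -9.99 ± 0.21 (SE), adjusted p = 5.8e-19). Both were highest in cord replicate 1 and lowest in replicate 2. Olig1, a transcription factor of the oligodendrocyte lineage, was at 184, 192 and 189 CPM in cord and 0, 0 and 0.0615 CPM in diaphragm. Cspg4, the NG2 proteoglycan of oligodendrocyte precursors and of pericytes, was the member higher in diaphragm, at 4.59, 5.56 and 5.23 CPM against 1.73, 2.15 and 2.08 CPM (log2 difference 1.04 ± 0.40 (SE), adjusted p = 0.026), and its call was lost without the intermediate libraries (adjusted p = 0.15). Whether the glial transcripts came from tagged cells or were carried along in the purification was not tested, as no Cre-negative cord was analysed.

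Astrocyte markers were higher in cord for 18 of 20 tested and higher in diaphragm for 1, with a median of -3.04, and for 16 and 0 without the intermediate libraries. Gfap, the astrocyte intermediate filament, was at 248, 231 and 237 CPM in cord and 0.0712, 0.0425 and 0 CPM in diaphragm (log2 difference -7.85 ± 0.26 (SE), adjusted p = 3.7e-16). Apoe, a lipid carrier made by astrocytes and macrophages, was at 1130.0, 1509 and 1309 CPM in cord and 203, 249.9 and 232 CPM in diaphragm (log2 difference -2.52 ± 0.32 (SE), adjusted p = 7.2e-07). Ntsr2, a neurotensin receptor of astrocytes, was at 58.8, 49.6 and 53.3 CPM in cord with 0 reads in diaphragm, at least 1736-fold lower there.

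Schwann cells line the nerve branches inside the muscle, but their genes were higher in cord for 17 of 18 tested and higher in diaphragm for 0, with a median of -2.30. With RLE size factors 11 were higher in cord, and without the intermediate libraries also 11. Several of these genes belong to myelin in general, and Mbp and Mal stand in the oligodendrocyte list as well. S100b, made by Schwann cells and astrocytes, was at 1209, 1169 and 1201 CPM in cord and 4.11, 3.34 and 5.51 CPM in diaphragm (log2 difference -7.83 ± 0.38 (SE), adjusted p = 1.9e-13). Mal, a lipid-raft protein of myelin, was at 172, 167 and 172 CPM in cord and 1.27, 0.0425 and 1.06 CPM in diaphragm (log2 difference -6.66 ± 0.32 (SE), adjusted p = 2.3e-13). The diaphragm replicates were spread widely for Mal, with replicate 2 almost at 0.

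Diaphragm reads of genes abundant in cord were set against the Cre-negative background, a question chosen after the values were seen. Of 1398 genes at 100 CPM or more in each cord library, 1303 had reads in all 6 diaphragm libraries of P10, with Cre and without. For 22 genes there were reads in all 3 Cre-positive libraries and 0 in all 3 Cre-negative ones, and for 1 gene the reverse held. With 50 CPM as the limit these numbers were 32 and 1 of 2404 genes, and with 200 CPM 16 and 1 of 811. The same count was not made over all genes, so these numbers cannot show whether the imbalance is particular to cord genes. The Cre-negative libraries had 87.8, 93.7 and 90.6 M reads, fewer than each Cre-positive library. Some of the 22 genes had only a few reads, such as Disp2 with 2, 3 and 5. The level of the 22 genes in Cre-positive diaphragm was a median 0.0311% of their level in cord, from 0.0145% to 0.649%. Among them were genes of axons, with 45, 43 and 79 reads for Nefl, 20, 3 and 23 for Nefh, 17, 142 and 77 for Tubb3 and 30, 29 and 48 for Stmn3. Calca of the motor neuron list had 15, 11 and 34 reads, and Cplx1 of the synaptic vesicle list had 17, 12 and 6. Others of the 22 stand in other lists: Mobp of the oligodendrocyte list had 130, 35 and 120 reads, and Sst of the interneuron list had 26, 10 and 36. Membership of a list does not fix the cell that a read came from. As a share of the cord level this was 0.0167% for Nefl, 0.0258% for Calca, 0.0492% for Mobp and 0.0334% for Sst. The source of these reads was not tested.

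Transcripts of muscle fibres were abundant in the diaphragm libraries. Of 37 fast and general sarcomere genes tested, 36 were higher in diaphragm and 1 in cord, with a median of 5.36, and the counts were the same with RLE size factors, with quantile normalization and without the intermediate libraries. The list took 13.7%, 12.4% and 13.1% of the Cre-positive diaphragm libraries, 12.6%, 13.8% and 12.8% of the Cre-negative ones and 0.111%, 0.238% and 0.174% of the cord libraries. Acta1, skeletal muscle actin, was at 24017, 23745 and 24348 CPM in diaphragm and 22.7, 121 and 75.5 CPM in cord (log2 difference 8.63 ± 0.47 (SE), adjusted p = 1.3e-12). Tnni2, the inhibitory subunit of fast troponin, was at 16112, 15022 and 15702 CPM in diaphragm and 5.34, 65.1 and 35.6 CPM in cord (log2 difference 9.29 ± 0.57 (SE), adjusted p = 1.1e-11). Mylpf, the fast regulatory light chain of myosin, was at 22066, 18042 and 20374 CPM in diaphragm and 10.1, 76.9 and 47.2 CPM in cord (log2 difference 9.18 ± 0.52 (SE), adjusted p = 3.1e-12). For each the diaphragm libraries lay close together, while cord replicate 2 was several times above cord replicate 1 and replicate 3 lay between. Tcap, which anchors titin at the Z disc, was at 1954, 1655 and 1946 CPM in diaphragm and 0.964, 6.2 and 4.28 CPM in cord (log2 difference 8.78 ± 0.44 (SE), adjusted p = 3.8e-13). Nebl, a nebulin-like protein of cardiac muscle and non-muscle cells, was the member higher in cord, at 9.43, 7.04 and 7.74 CPM against 0.894, 0 and 0.708 CPM (log2 difference -2.61 ± 0.19 (SE), adjusted p = 1.5e-10).

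Slow and developmental sarcomere genes had the same direction, with 16 of 18 tested higher in diaphragm, 1 higher in cord and a median of 3.51. Tnnt1, slow troponin T, was at 1706, 1735 and 1724 CPM in diaphragm and 2.04, 5.42 and 3.72 CPM in cord (log2 difference 8.58 ± 0.40 (SE), adjusted p = 1.3e-13). Myl2, the slow regulatory light chain, was at 817, 793 and 799.7 CPM in diaphragm and 1.76, 3.45 and 2.19 CPM in cord (log2 difference 7.89 ± 0.25 (SE), adjusted p = 3.2e-16). Myoz2, a Z-disc protein of slow fibres, was at 398, 460.5 and 415 CPM in diaphragm and 0.23, 0.325 and 0.814 CPM in cord. Genes of slow and of fast fibres were both present in every diaphragm library. Myl6b, the member higher in cord, was at 4.18, 4.52 and 3.89 CPM there and 2.9, 0.34 and 1.29 CPM in diaphragm, and it lost the call without the intermediate libraries (adjusted p = 0.059).

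Excitation-contraction coupling joins the electrical signal of the fibre membrane to calcium release. Of 22 genes tested, 20 were higher in diaphragm and 0 in cord, with a median of 5.20, and with RLE size factors all 22 were. Sln, sarcolipin, which regulates the calcium pump, was at 18511, 19231 and 18547 CPM in diaphragm and 35.3, 48.6 and 38.8 CPM in cord (log2 difference 8.82 ± 0.34 (SE), adjusted p = 6.8e-15). Casq1, the calcium store protein calsequestrin, was at 514, 506 and 509 CPM in diaphragm and 0.597, 6.05 and 2.99 CPM in cord (log2 difference 7.17 ± 0.48 (SE), adjusted p = 4.2e-11). Cav3, muscle caveolin, was at 249, 348 and 296 CPM in diaphragm and 0.153, 1.09 and 0.558 CPM in cord (log2 difference 7.57 ± 0.31 (SE), adjusted p = 1.7e-14). Atp2a1, the calcium pump of fast fibres, was at 460.1, 436 and 462 CPM in diaphragm and 0.276, 4.52 and 2.8 CPM in cord (log2 difference 7.24 ± 0.38 (SE), adjusted p = 9.9e-13). Bin1, which shapes transverse tubules and is also made in brain, and Asph, a calcium-handling protein of many tissues, were the members not called. The groups did not overlap for the 4 genes named with values.

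On the muscle side of the junction the pattern was mixed. Of 18 postsynaptic genes tested, 11 were higher in diaphragm and 5 in cord, with a median of 1.46. Ache and Prkar1a were the 2 called higher in cord with RLE size factors, as without the intermediate libraries, and with quantile normalization or edgeR it was Ache alone. Chrnb1, the beta subunit of the muscle acetylcholine receptor, was at 25.3, 38.9 and 29.99 CPM in diaphragm and 0.337, 0.531 and 0.347 CPM in cord (log2 difference 4.51 ± 0.21 (SE), adjusted p = 1.8e-13). Chrnd, the delta subunit, was at 5.5, 8.5 and 7.35 CPM in diaphragm and 0, 0.0148 and 0.0151 CPM in cord (log2 difference 2.99 ± 0.44 (SE), adjusted p = 4.5e-06). Chrna1, the alpha subunit, was at 8.08, 16.1 and 10.3 CPM in diaphragm and 3.38, 2.85 and 3 CPM in cord (log2 difference 1.57 ± 0.23 (SE), adjusted p = 3.5e-06). Within the diaphragm group replicate 2 was highest and replicate 1 lowest for all of these. Chrng, the gamma subunit of the fetal receptor, was at 0.976, 2.58 and 1.36 CPM in diaphragm with 0 reads in cord, at least 36.4-fold lower there. Chrne, the epsilon subunit that replaces it after birth, was at 3.92, 8.15 and 6.1 CPM in diaphragm and 0, 0.221 and 0.106 CPM in cord (log2 difference 2.63 ± 0.23 (SE), adjusted p = 2.9e-09). Both subunits were therefore present in P10 diaphragm, and Cre-negative diaphragm had 0, 4.32 and 1.78 CPM of Chrng and 13.2, 15.6 and 14.6 CPM of Chrne. Musk, the receptor kinase that organises the junction, was at 4.75, 7.57 and 5.76 CPM in diaphragm and 0.0459, 0.0295 and 0.0302 CPM in cord (log2 difference 2.74 ± 0.43 (SE), adjusted p = 1.1e-05). Chrna1, Chrng and Chrne were picked for their role in the receptor after their values were seen.

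Members of the postsynaptic list higher in cord were Ache, Prkar1a, Lrp4, Etv5 and Dtna, genes that neurons or glia use as well. Prkar1a, a regulatory subunit of protein kinase A, was at 225, 175 and 196 CPM in cord and 94.2, 90.7 and 90.9 CPM in diaphragm (log2 difference -1.10 ± 0.16 (SE), adjusted p = 5.3e-06). The differences of Etv5, a transcription factor, and Dtna, dystrobrevin, turned from -0.55 and -0.51 to 0.01 and 0.07 with RLE size factors. Agrn, the organiser agrin that nerve and muscle both make, was at 20.7, 20.7 and 20.4 CPM in cord and 12.5, 15 and 13.6 CPM in diaphragm and was not called (adjusted p = 0.2).

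Myogenic and satellite cell genes were higher in diaphragm for 17 of 19 tested and higher in cord for 2, with a median of 1.77, and for 14 and 2 without the intermediate libraries. Myog, myogenin, which drives myoblasts into differentiation, was at 35.7, 30.5 and 36 CPM in diaphragm and 0, 0.177 and 0 CPM in cord (log2 difference 5.05 ± 0.31 (SE), adjusted p = 1.1e-11). Mymx, the micropeptide myomixer needed for myoblast fusion, was at 32.9, 54.8 and 47.3 CPM in diaphragm and 0, 0.266 and 0 CPM in cord (log2 difference 5.38 ± 0.20 (SE), adjusted p = 4.3e-15). Vgll2, a transcription cofactor of muscle, was at 101, 74.4 and 94.3 CPM in diaphragm and 0.107, 0.0885 and 0.226 CPM in cord. Mef2c, a transcription factor of muscle and neurons, was at 234, 269 and 243 CPM in diaphragm and 5.72, 5.49 and 5.29 CPM in cord (log2 difference 5.26 ± 0.26 (SE), adjusted p = 3.8e-13). The members higher in cord were Chodl, described above, and Ncam1, an adhesion molecule of neurons and young fibres, at 74.6, 77.6 and 77.5 CPM against 6.29, 10.7 and 9.42 CPM (log2 difference -3.01 ± 0.22 (SE), adjusted p = 1.7e-10).

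Several genes with a tissue-specific form carry the E-box CAGCTG, the sequence that myogenic factors of the MyoD family prefer, near their start. In the 250 bases before the start this hexamer was found for 3979 of 27025 genes (14.7%). It is its own reverse complement, so both strands read the same. It was found for 7 of 18 muscle forms of the paralog pairs described below (38.9%) and 0 of 18 of their general or neural forms, for 9 of 24 fast sarcomere genes (37.5%), 6 of 13 excitation-contraction coupling genes (46.2%) and 6 of 13 postsynaptic genes (46.2%). Lists of other cells reached such shares too, with 4 of 9 mesothelial, cartilage and gut genes (44.4%), 4 of 13 microglia and macrophage genes (30.8%), 9 of 33 synaptic vesicle genes (27.3%) and 5 of 20 motor neuron genes (25%). The share was 6 of 19 for slow sarcomere genes (31.6%), 1 of 10 for myogenic genes (10%) and 2 of 57 for ribosomal protein genes (3.51%). Denominators are the list genes with a promoter in the RefSeq table. The sequences below are RefSeq's on GRCm38.p6, 5′ to 3′ on the gene's strand and end just before the start. Their genes stand for the sarcomere, the muscle form of a respiratory subunit, creatine kinase and the receptor, and capitals mark CAGCTG. All but the last have a match, while most genes of their lists do not, so they do not show how common it is. Chrnb1 of the receptor and Cox7a1 of the muscle forms, for example, had none. The window of Mylpf lies at chr7:127211358-127211607 on the plus strand, with a match 51 bases before the start, that of Cox8b at chr7:140900447-140900696 on the minus strand (19 bases) and that of Ckm at chr7:19410844-19411093 on the plus strand (249 bases). Chrna1 lies at chr2:73580339-73580588 on the minus strand (92 and 44 bases) and Chrng at chr1:87205561-87205810 on the plus strand (155 and 132 bases). Cox6a1, the general partner of the muscle form Cox6a2, is shown as one without a match, at chr5:115348959-115349208 on the minus strand.
Mylpf: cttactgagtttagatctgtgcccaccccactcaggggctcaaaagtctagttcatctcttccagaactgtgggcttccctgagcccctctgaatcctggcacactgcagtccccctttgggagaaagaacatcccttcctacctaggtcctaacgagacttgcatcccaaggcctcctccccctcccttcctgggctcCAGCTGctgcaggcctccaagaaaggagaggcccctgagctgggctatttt
Cox8b: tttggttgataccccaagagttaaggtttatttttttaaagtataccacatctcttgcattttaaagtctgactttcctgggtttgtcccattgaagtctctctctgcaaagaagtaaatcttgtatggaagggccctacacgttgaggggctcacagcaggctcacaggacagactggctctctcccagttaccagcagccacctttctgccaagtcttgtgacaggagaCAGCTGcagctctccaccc
Ckm: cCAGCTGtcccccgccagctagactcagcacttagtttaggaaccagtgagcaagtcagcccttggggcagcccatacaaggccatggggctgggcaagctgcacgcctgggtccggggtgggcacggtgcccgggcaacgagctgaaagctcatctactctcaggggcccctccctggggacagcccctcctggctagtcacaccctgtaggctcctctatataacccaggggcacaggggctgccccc
Chrna1: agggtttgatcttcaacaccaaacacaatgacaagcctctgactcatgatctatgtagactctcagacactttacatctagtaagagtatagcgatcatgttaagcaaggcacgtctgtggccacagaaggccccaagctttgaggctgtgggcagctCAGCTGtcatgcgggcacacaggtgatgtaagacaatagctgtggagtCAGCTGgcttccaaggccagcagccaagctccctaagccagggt
Chrng: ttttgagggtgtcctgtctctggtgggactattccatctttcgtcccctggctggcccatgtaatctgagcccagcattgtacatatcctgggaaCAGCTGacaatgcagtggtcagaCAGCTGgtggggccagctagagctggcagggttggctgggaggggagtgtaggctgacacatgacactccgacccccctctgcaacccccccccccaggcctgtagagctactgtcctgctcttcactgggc
Cox6a1: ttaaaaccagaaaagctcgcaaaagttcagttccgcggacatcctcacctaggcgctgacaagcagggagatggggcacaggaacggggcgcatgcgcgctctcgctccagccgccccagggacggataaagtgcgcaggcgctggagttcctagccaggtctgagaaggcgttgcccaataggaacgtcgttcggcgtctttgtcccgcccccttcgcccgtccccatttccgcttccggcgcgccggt
A match is a description of these letters and shows no binding.

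Many enzymes and respiratory subunits have a muscle form and a form used in other tissues or in neurons, and 22 such pairs were compared. Of the 22 muscle forms 21 were higher in diaphragm and 1 in cord, with a median of 5.58. Of the 22 general or neural forms 2 were higher in diaphragm and 17 in cord, with a median of -2.82. With RLE size factors the general forms had 5 higher in diaphragm and 16 in cord. Cox6a2, the muscle form of a cytochrome c oxidase subunit, was at 7961, 7603 and 8131 CPM in diaphragm and 3.63, 33.8 and 18.7 CPM in cord (log2 difference 9.07 ± 0.47 (SE), adjusted p = 8.0e-13), while Cox6a1, the general form, was at 1173, 1141 and 1185 CPM in diaphragm and 2665, 2622 and 2694 CPM in cord (log2 difference -1.19 ± 0.10 (SE), adjusted p = 1.5e-09). Cox8b was at 7360.3, 8375 and 7804 CPM in diaphragm and 2.56, 22.7 and 11.2 CPM in cord (log2 difference 9.60 ± 0.42 (SE), adjusted p = 4.4e-14), while Cox8a was at 1736, 1724 and 1842 and 3655, 3554 and 3551 CPM (log2 difference -1.02 ± 0.10 (SE), adjusted p = 1.1e-08). In these 2 pairs the muscle form had the wider gap, and the general form was present in both tissues.

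Enzymes of energy metabolism gave pairs with opposite directions. Ckm, muscle creatine kinase, was at 2618, 2461 and 2616 CPM in diaphragm and 2.11, 23.4 and 11.2 CPM in cord (log2 difference 8.04 ± 0.55 (SE), adjusted p = 5.1e-11), and Ckb, the brain form, was at 32, 19.2 and 29.6 CPM in diaphragm and 1195, 1085 and 1128 CPM in cord (log2 difference -5.38 ± 0.20 (SE), adjusted p = 2.8e-15). Eno3, muscle enolase, was at 1469.7, 1276 and 1389 CPM in diaphragm and 4.1, 15.1 and 8.64 CPM in cord (log2 difference 7.22 ± 0.47 (SE), adjusted p = 2.8e-11), and Eno2, the neuronal form, was at 0.275, 0.191 and 0.102 CPM in diaphragm and 441, 401 and 418 CPM in cord (log2 difference -8.47 ± 0.12 (SE), adjusted p = 3.2e-21). Pgam2 and Pgam1, the glycolytic mutases, had differences of 7.95 and -3.88. In each of these pairs the muscle form was high in diaphragm and its partner high in cord. Aldoa, aldolase A, had only a small difference, at 3544, 3304 and 3576 CPM in diaphragm and 2004, 1774 and 1930.2 CPM in cord (log2 difference 0.87 ± 0.11 (SE), adjusted p = 5.3e-07), while Aldoc, the neural form, was at 0.0915, 0.0425 and 0.123 and 246, 269 and 261 CPM (log2 difference -7.90 ± 0.31 (SE), adjusted p = 9.3e-15). Slc2a4, the insulin-regulated glucose carrier, was at 84.1, 81.8 and 85.6 CPM in diaphragm and 1.04, 1.56 and 0.618 CPM in cord, and Slc2a3, the neuronal carrier, was at 0, 1.43 and 0.349 and 26.4, 26.5 and 25.6 CPM.

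Translation factors and ribosomal proteins have such pairs as well. Rpl3l, the muscle form of a ribosomal protein, was at 384, 389 and 379 CPM in diaphragm and 3.89, 4.15 and 3.47 CPM in cord (log2 difference 6.32 ± 0.23 (SE), adjusted p = 2.5e-15), and Rpl3 was at 256, 351 and 290.0 and 809, 766 and 776 CPM (log2 difference -1.40 ± 0.13 (SE), adjusted p = 6.5e-09). Eef1a2, the elongation factor of adult muscle and neurons, was the muscle-list member higher in cord, at 75.5, 70.7 and 77.3 CPM against 7.53, 8.07 and 7.52 CPM (log2 difference -3.12 ± 0.13 (SE), adjusted p = 1.4e-14). Its general partner Eef1a1 was at 1074, 1198 and 1101 CPM in diaphragm and 1186, 1235 and 1209.7 CPM in cord, a difference of -0.11 that was 0.50 with RLE size factors. The general forms higher in diaphragm were Cox7a2, at 2135, 2338 and 2152 CPM against 1653, 1823 and 1706 CPM (log2 difference 0.35 ± 0.08 (SE), adjusted p = 7.3e-04), and Fbp1, a gluconeogenic enzyme, at 3.97, 4.26 and 3.48 CPM against 0.306, 0.502 and 0.317 CPM (log2 difference 1.83 ± 0.49 (SE), adjusted p = 0.0024). Atp2a2, the slow-fibre and general calcium pump, did not pass the test, with 115, 161 and 128 CPM in diaphragm and 133, 131 and 134 CPM in cord (log2 difference 0.01), though it did with RLE size factors (log2 difference 0.61, adjusted p = 7.4e-06).

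**Figure D3:**
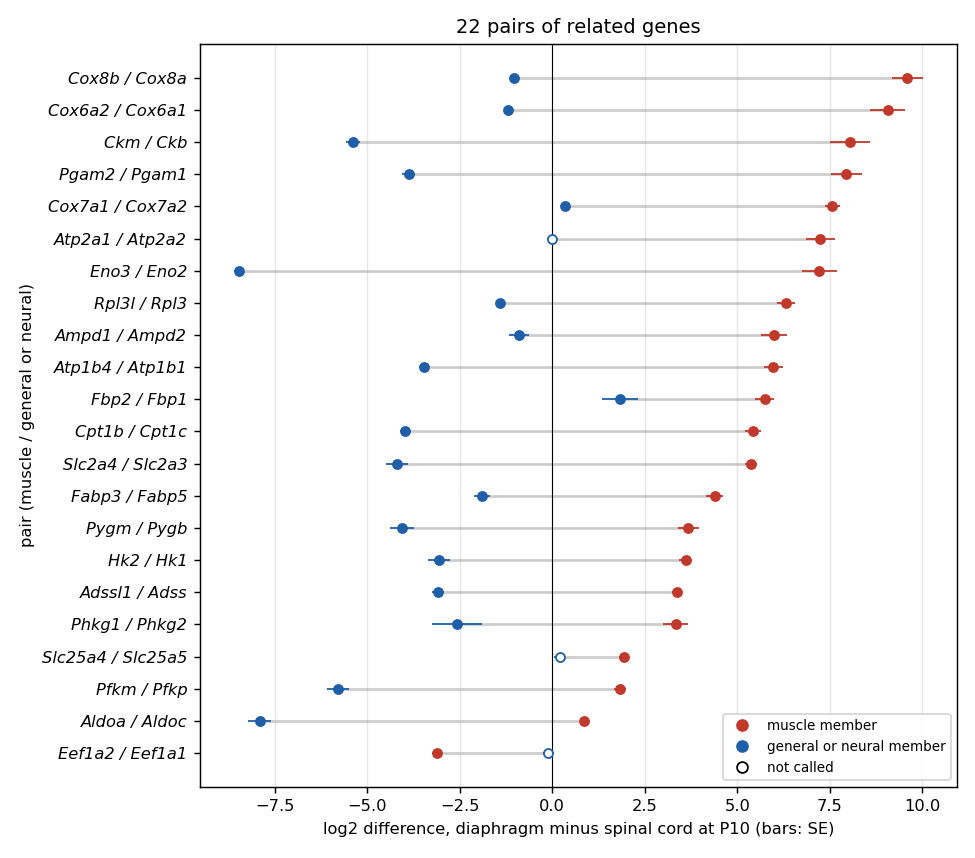
Log2 difference (diaphragm minus spinal cord at P10, log2(CPM + 1) scale, x axis) with its SE for the muscle form and the general or neural form of 22 gene pairs (y axis), where open symbols did not pass the test. Cox8b stands at 9.60 and Cox8a at -1.02, Ckm at 8.04 and Ckb at -5.38, and Eef1a2 at -3.12 is the muscle form on the cord side.

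Genes of fatty acid oxidation, which runs in mitochondria, were mostly higher in diaphragm. Of 22 fatty acid oxidation genes tested, 19 were higher in diaphragm and 1 in cord, with a median of 2.34, and the counts were 21 and 1 with RLE size factors. Cd36, which takes up fatty acids, was at 115, 153 and 118 CPM in diaphragm and 0.0918, 0.516 and 0.136 CPM in cord (log2 difference 6.70 ± 0.18 (SE), adjusted p = 1.2e-17). Acaa2, a thiolase of beta-oxidation, was at 248, 251 and 254 CPM in diaphragm and 12.5, 14.8 and 15.1 CPM in cord (log2 difference 4.06 ± 0.11 (SE), adjusted p = 1.5e-17). Cpt1a, the carnitine transferase of liver and many other tissues, was the member higher in cord, at 17.4, 16.9 and 17.3 CPM against 3.45, 4.67 and 4.28 CPM (log2 difference -1.83 ± 0.35 (SE), adjusted p = 1.1e-04), whereas its muscle relative Cpt1b was at 46.9, 47.7 and 49.7 CPM in diaphragm and 0.153, 0.192 and 0.0905 CPM in cord.

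Nuclear-encoded respiratory chain genes depended on the scaling. Of 54 tested, 40 were higher in diaphragm and 2 in cord with a median of 0.50, but with RLE size factors 53 were higher in diaphragm and 0 in cord, with quantile normalization 32 and 11, and without the intermediate libraries 32 and 1. They took 21.8%, 22.8% and 22.4% of the diaphragm libraries and 13.3%, 13.8% and 13.6% of the cord libraries, without overlap (exact permutation test, two-sided p = 0.1, the smallest that 3 against 3 allow). Atp5e, a subunit of ATP synthase, was at 8855, 9542 and 9661 CPM in diaphragm and 1755, 1566 and 1679 CPM in cord (log2 difference 2.49 ± 0.11 (SE), adjusted p = 3.0e-14; 3.10 with RLE size factors and 1.78 with quantile normalization). Uqcr11, a subunit of complex III, was at 23703, 23925 and 25722 CPM in diaphragm and 11414, 11611 and 11635 CPM in cord, a difference of 1.08 that turned to -0.23 with quantile normalization. Cox7c was not called and turned from 0.09 to -1.37 with it. Ndufb8 and Ndufv2 of complex I were the members higher in cord, at -0.45 and -0.22, and both turned with RLE size factors, to 0.15 and 0.39. No mitochondrially encoded gene is in the table.

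Ribosomal protein genes depended on it too. Of 77 tested, 37 were higher in diaphragm and 16 in cord, with a median of 0.23, against 66 and 2 with RLE size factors, 49 and 9 with quantile normalization, 71 and 0 with edgeR and 30 and 10 without the intermediate libraries. Together they took 9.12%, 9.29% and 9.04% of the diaphragm libraries and 7.81%, 8.09% and 7.96% of the cord libraries (exact permutation test, two-sided p = 0.1, the smallest possible). Rpl38 was higher in cord in the main test, at 2493, 2698 and 2367 CPM in diaphragm and 5027, 5182 and 5209.7 CPM in cord (log2 difference -1.03 ± 0.12 (SE), adjusted p = 1.1e-07). Its difference was -0.42 with RLE size factors and -1.61 with quantile normalization, but edgeR called no ribosomal protein gene higher in cord. Rpl22, the gene that carries the tag, was at 25, 30.6 and 26.9 CPM in diaphragm and 38.5, 40.7 and 40.8 CPM in cord (log2 difference -0.53 ± 0.13 (SE), adjusted p = 0.0011), and its difference was 0.06 with RLE size factors. The counts do not tell the tagged form from the native one. Ribosomal protein genes have many near-identical pseudogenes, so the assignment of their reads is uncertain.

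Other cell types of the muscle were read from their markers. Fibroblast and connective tissue genes were higher in diaphragm for 24 of 25 tested and in cord for 0, with a median of 3.85. Col3a1, a fibrillar collagen, was at 589, 634 and 579 CPM in diaphragm and 13.6, 53.5 and 34.2 CPM in cord (log2 difference 4.31 ± 0.35 (SE), adjusted p = 7.2e-10). Dpt, dermatopontin of the matrix, was at 149, 112 and 129 CPM in diaphragm and 1.22, 2.02 and 1.92 CPM in cord (log2 difference 5.59 ± 0.20 (SE), adjusted p = 1.9e-15). Endothelial and mural genes were higher in diaphragm for 19 of 20 and in cord for 1, with a median of 3.10. Cdh5, the cadherin of vessel walls, was at 33.4, 36.4 and 32.7 CPM in diaphragm and 0.689, 1.2 and 0.86 CPM in cord (log2 difference 4.21 ± 0.21 (SE), adjusted p = 5.3e-13). Fabp4, a fatty acid carrier of capillaries and fat cells, was at 3088, 3211 and 3111 CPM in diaphragm and 4.67, 11.9 and 8.43 CPM in cord (log2 difference 8.47 ± 0.36 (SE), adjusted p = 3.2e-14). Myh11, smooth muscle myosin, was the exception, at 3.81, 2.44 and 3.63 CPM in diaphragm and 7.09, 7.02 and 6.83 CPM in cord (log2 difference -0.91 ± 0.20 (SE), adjusted p = 4.2e-04), a call lost with RLE size factors (adjusted p = 0.13). Adipocyte genes were higher in diaphragm for 9 of 12 and in cord for 1, with a median of 1.11, and for 4 and 1 without the intermediate libraries. Ucp1, the uncoupling protein of brown fat, was at 8.12, 7.34 and 8.09 CPM in diaphragm and 0.107, 1.27 and 0.588 CPM in cord.

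Blood-borne and immune cells showed smaller gaps. Of 11 erythroid genes tested 5 were higher in diaphragm and 0 in cord, with a median of 0.54, and edgeR called 6 and 2. Hbb-bs, adult beta globin, was at 10521, 9847 and 10633 CPM in diaphragm and 1037, 1343 and 1215 CPM in cord (log2 difference 3.11 ± 0.24 (SE), adjusted p = 3.2e-10). Of 19 microglia and macrophage genes 9 were higher in diaphragm and 3 in cord, with a median of 0.59, and edgeR called 12 and 0. Lyve1, a marker of tissue macrophages and lymph vessels, was at 12.6, 8.49 and 9.52 CPM in diaphragm and 0.383, 0.472 and 0.483 CPM in cord (log2 difference 2.94 ± 0.21 (SE), adjusted p = 1.5e-10). P2ry12, a purinergic receptor of microglia, was higher in cord, at 3.63, 3.45 and 2.96 CPM against 0, 0.808 and 0.523 CPM (log2 difference -1.63 ± 0.18 (SE), adjusted p = 6.6e-08). Of 20 cell cycle genes 12 were higher in diaphragm and 1 in cord, with a median of 0.80, against 19 and 0 with quantile normalization, edgeR and DESeq2 alike and 9 and 1 without the intermediate libraries. Cdk1, the kinase of mitotic entry, was at 11.6, 10.2 and 10.5 CPM in diaphragm and 1.9, 2.74 and 2.11 CPM in cord (log2 difference 1.86 ± 0.16 (SE), adjusted p = 2.2e-09). Pcna, the replication clamp, went the other way at 22.5, 18.6 and 19.6 and 34.2, 43.9 and 37.7 CPM (log2 difference -0.89 ± 0.15 (SE), adjusted p = 2.1e-05), and turned to 0.07 with quantile normalization.

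Markers of organs next to the diaphragm were in its libraries as well. Of 17 hepatocyte genes tested, 14 were higher in diaphragm and 1 in cord, with a median of 2.94. Alb, serum albumin, was at 44.8, 169.7 and 86.8 CPM in diaphragm and 0.0612, 0.0443 and 0.121 CPM in cord (log2 difference 6.36 ± 0.76 (SE), adjusted p = 2.9e-07), and at 3.31, 40.5 and 21.9 CPM in Cre-negative diaphragm. Fabp1, the liver fatty acid carrier, was at 46, 99.2 and 61.1 CPM in diaphragm with 0 reads in cord, at least 1524-fold lower there. Over the list all 15 genes that could be compared were higher in diaphragm replicate 2 than in replicate 1, with a median ratio of 3.79, and replicate 3 lay between for Alb and Fabp1. This order was not counted over all genes, and other lists had it too. It held for 11 of 11 oligodendrocyte genes (median ratio 1.29), 14 of 18 postsynaptic genes (1.30) and 4 of 4 mesothelial, cartilage and gut genes (2.17). For fast sarcomere genes it held for 15 of 36 (0.964). Trf, transferrin, was the member higher in cord, at 171, 145 and 159 CPM against 12.9, 58 and 29.6 CPM (log2 difference -2.44 ± 0.59 (SE), adjusted p = 9.5e-04), and oligodendrocytes make it too. Of 13 mesothelial, cartilage and gut genes 4 were higher in diaphragm and 3 in cord, and the sign of their median changed with the scaling. Upk3b, a mesothelial protein, was at 7.59, 11.5 and 9.01 CPM in diaphragm with 0 reads in cord, at least 208-fold lower there, and Msln, mesothelin of the same cells, was at 13.8, 46.2 and 29.6 CPM in diaphragm and 0.23, 0.959 and 0.573 CPM in cord.

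Transcripts of muscle and connective tissue in the cord libraries differed among those libraries. Of 22 fast sarcomere genes that could be compared, 20 were higher in cord replicate 2 than in replicate 1, with a median ratio of 4.52. Of 20 fibroblast genes 19 were, with a median ratio of 3.08, while over all genes 4588 of 12353 (37.1%) were, with a median ratio of 0.953. Tnnc2, fast troponin C, was at 27.1, 719 and 347 CPM in the 3 cord libraries, and Ckm was at 2.11, 23.4 and 11.2 CPM. Replicate 3 lay between the others for both. The tissue differences of genes with this spread therefore have an uncertain size. For Acta1, Ckm and Col3a1 even the highest cord library stayed far below every diaphragm library, while Nebl of the fast sarcomere list was higher in cord. Where the muscle and connective tissue reads of the cord libraries came from was not tested.

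**Figure D4:**
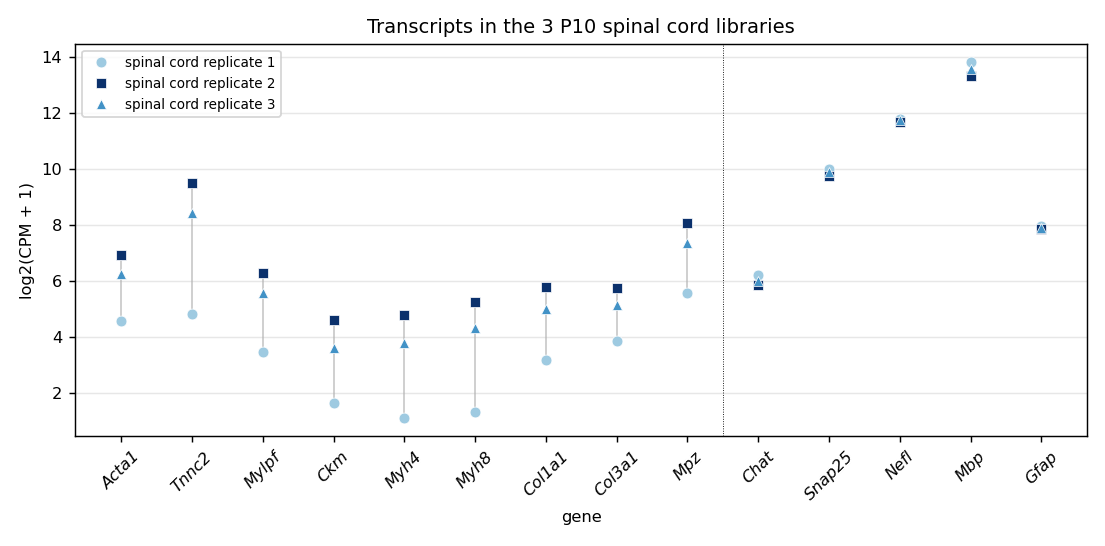
Level as log2(CPM + 1) (y axis) of muscle, connective tissue and peripheral myelin genes (left of the dotted line) and of neuronal and glial genes (right of it) in the 3 spinal cord libraries at P10, with 1 symbol per library. Acta1 runs from 22.7 CPM in replicate 1 to 121 CPM in replicate 2 and Col3a1 from 13.6 to 53.5 CPM, while the 3 symbols of Chat, Nefl and Gfap lie close together.

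Cre-positive diaphragm was also compared with the Cre-negative libraries of the same age, a comparison that shares the Cre-positive diaphragm samples with the tissue comparison. Of 13853 genes tested 201 (1.45%) differed, 58 (0.419%) higher in Cre-positive and 143 (1.03%) lower. The balance of directions depended on the method, with 78 higher and 87 lower with RLE size factors, 123 and 121 with quantile normalization, 31 and 15 with edgeR and 243 and 208 with DESeq2. By limma 0 of 15 motor neuron, 0 of 28 synaptic vesicle and 0 of 26 axonal genes tested were among them. At an unadjusted limma p under 0.05 there were 3, 1 and 2 of these genes, against 1786 of 13853 over all genes. With 1.45% of all genes called, 0 calls in lists of this size do not set them apart. On the recovered reads edgeR called 2 axonal genes higher with Cre, Nefl (adjusted p = 0.0115) and Tubb3 (adjusted p = 0.0165), both with 0 reads in the 3 Cre-negative libraries. DESeq2 called these and Stmn3 of the axonal list, Isl1 of the motor neuron list and Snap25 and Doc2b, a calcium sensor of release, of the synaptic list, with adjusted p from 2.01e-07 for Tubb3 to 0.0239 for Snap25. It also called Sst and Npy of the interneuron list, the latter with 0, 0 and 38 reads. Isl1 had 0, 56 and 54 reads in the Cre-positive libraries and Snap25 had 13, 0 and 23, so neither was present in all of them. In the other direction limma called 1 of 13 neuronal channel genes, Kcna1, a potassium channel of axons, at 2.32, 2.24 and 2.02 CPM with Cre against 6.47, 5.73 and 6.23 CPM (adjusted p = 0.0399). The neuronal genes in this paragraph were named after their values were seen. Ucp1 was higher with Cre, at 8.12, 7.34 and 8.09 CPM against 0, 0.715 and 0.431 CPM (log2 difference 2.71 ± 0.28 (SE), adjusted p = 2.9e-05). Gsn, the actin-severing protein gelsolin, was lower, at 28.4, 29.8 and 30.9 CPM against 78.9, 45.2 and 63.3 CPM (log2 difference -1.01 ± 0.25 (SE), adjusted p = 0.048). Mag, a myelin protein, was lower too, at 1.07, 0 and 0.677 CPM against 2.88, 4.25 and 4.03 CPM (adjusted p = 0.013). Of 17 hepatocyte genes tested 2 were called, Apoc3 and Hpx, both plasma proteins made by liver. Apoc3 was higher with Cre, at 12.2, 35 and 21.4 CPM against 0, 2.56 and 1.2 CPM (adjusted p = 0.022), as was Hpx, at 3.12, 26.5 and 11 CPM against 0, 1.7 and 0.519 CPM (adjusted p = 0.02). On the recovered reads edgeR called none of Kcna1, Ucp1, Gsn, Mag, Apoc3 and Hpx, with adjusted p of 0.893, 0.58, 0.144, 0.823, 0.296 and 0.228. DESeq2 called Gsn (adjusted p = 0.0201) and not the others (0.662 for Kcna1, 0.944 for Ucp1, 0.746 for Mag, 0.119 for Apoc3 and 0.0639 for Hpx). With RLE size factors Gsn (adjusted p = 0.091) and Kcna1 (adjusted p = 0.0747) lost the call, as they did with quantile normalization (0.0516 and 0.056). The count changed with single libraries: leaving out replicate 1 or replicate 3 of the Cre-negative group gave 93 and 44, and leaving out replicate 2 or replicate 3 of the Cre-positive group gave 124 and 48. Without the intermediate libraries it was 0, with 246 genes at an unadjusted p under 0.05; edgeR called 46 in all and DESeq2 451.

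The tissue difference itself was followed across ages, which shares the P10 libraries between both steps. From P0.5 to P10 the difference changed for 6889 of 14831 genes (46.5%), upward toward diaphragm for 4203 (28.3%) and downward for 2686 (18.1%). From P10 to adult it changed for 5092 genes (34.3%), upward for 2117 (14.3%) and downward for 2975 (20.1%). The balance of directions followed the scaling. The first step had 3625 upward and 3277 downward with RLE size factors, 3527 and 3422 with quantile normalization, 2460 and 2975 with edgeR and 2975 and 3319 with DESeq2. The second had 2661 and 2531, 2612 and 2498, 2256 and 2482, and 2704 and 2807 in the same order. Without the intermediate libraries the totals were 2864 and 945. By limma, oligodendrocyte genes moved toward cord first, with 2 of 25 rising and 16 falling from P0.5 to P10 (median -1.62 against 0.17 over all genes). They moved back afterwards, with 13 rising and 0 falling (median 1.01 against -0.10). With those libraries left out, 12 fell in the first step and 3 rose in the second. The counts were lower on the recovered reads, with 1 rising and 3 falling by edgeR and 2 and 6 by DESeq2 in the first step, and 4 and 2 by edgeR and 6 and 2 by DESeq2 in the second. Over all 14822 genes edgeR called 2460 rising and 2975 falling in the first step and 2256 and 2482 in the second. DESeq2 called 2975 and 3319, then 2704 and 2807. On the recovered reads the calls therefore did not set the list clearly apart from all genes. Its medians kept their direction there. In the first step they were -1.08 by edgeR and -1.06 by DESeq2, against -0.016 and 0.002 over all genes. In the second they were 0.71 and 0.84, against 0 and 0.05. Opalin, a protein of mature oligodendrocytes, was at 0.114, 0.181 and 0.355 CPM in P0.5 cord and 55.4, 53.9 and 56.3 CPM in P10 cord, with 0 CPM in diaphragm at both ages.

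The tissue difference of muscle genes also changed with age. From P10 to adult the difference of fast sarcomere genes rose for 20 of 37 and fell for 2, with a median change of 1.15, against 14.3% rising and 20.1% falling over all genes, and 30 rose with RLE size factors. Myogenic genes rose for 0 of 19 and fell for 11 (median -0.98), and edgeR gave 2 and 6. Cell cycle genes rose for 0 of 20 and fell for 10 (median -0.95), and edgeR gave 0 and 11. Fibroblast genes rose for 0 of 25 and fell for 10 (median -0.93), but this direction turned on the recovered reads, where 9 rose and 1 fell by edgeR (median 1.22) and 11 rose and 1 fell by DESeq2 (median 1.28). Without the intermediate libraries these calls came down to 6 fast sarcomere genes that rose and to 4 myogenic, 2 cell cycle and 4 fibroblast genes that fell. Mymx was at 34, 27.4 and 32.1 CPM in P0.5 diaphragm, 32.9, 54.8 and 47.3 CPM at P10 and 0, 0 and 0 CPM in adults, so that its tissue difference changed by -5.38 ± 0.29 (SE) after P10 (adjusted p = 1.7e-10), a call that DESeq2 also made and edgeR did not. Myog went from 35.7, 30.5 and 36 CPM at P10 to 0, 0.467 and 0.235 CPM in adult diaphragm. Chrng and Chrne, which follow each other in the receptor during development, changed in opposite directions from P0.5 to P10. Chrng was at 10.8, 5.47 and 11.9, then 0.976, 2.58 and 1.36, then 0, 0 and 0 CPM in the diaphragm libraries of P0.5, P10 and adults. Chrne was at 1.27, 0 and 0.839, then 3.92, 8.15 and 6.1, then 4.56, 3.84 and 4.59 CPM at the same ages. The change of the tissue difference from P0.5 to P10 was -1.35 for Chrng (adjusted p = 0.0033) and 2.03 for Chrne (adjusted p = 4.5e-05). Without the intermediate libraries it remained past the threshold for Chrne (adjusted p = 0.0083) and not for Chrng (adjusted p = 0.18).

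Single genes with the largest changes were of several kinds. Bcar1, an adaptor protein of focal adhesions, was at 75, 291 and 63.6 CPM in P0.5 diaphragm and 3661, 4381 and 4214 CPM at P10, and at 74.3, 230.1 and 137 and then 46, 47.1 and 46.3 CPM in cord (change 6.67 ± 0.63 (SE), adjusted p = 7.1e-08). The P10 diaphragm libraries lay above all others of these 4 groups for it. Gsn was at 8.86, 10.5 and 10.01 CPM in P0.5 cord, 1839, 1943 and 1894 CPM at P10 and 93.2, 32.8 and 57.6 CPM in adults (change -8.01 from P0.5 to P10, adjusted p = 2.9e-12, and 6.32 afterwards, adjusted p = 3.6e-10). In diaphragm Gsn was at 28.4, 29.8 and 30.9 CPM at P10 and 99.7, 57.2 and 68.7 CPM in adults. Cfd, the adipocyte protease adipsin, was at 1.89, 1.61 and 2.44 CPM in P10 diaphragm and 512, 222 and 286 CPM in adults (change 6.74 ± 0.70 (SE), adjusted p = 7.1e-07). Thrsp, a regulator of fat synthesis, was at 269, 326 and 267 CPM in P0.5 diaphragm and 54.4, 81.5 and 65.5 CPM at P10, and at 6.09, 3.29 and 4.53 and then 108, 83.9 and 99.3 CPM in cord (change -6.24, adjusted p = 2.7e-12). Its tissue difference at P10 was -0.54 and turned to 0.07 with RLE size factors and 0.43 with quantile normalization. Alb went from 44.8, 169.7 and 86.8 CPM in P10 diaphragm to 33.5, 14.4 and 21.9 CPM in adults (change -4.88, adjusted p = 0.0017), a call lost without the intermediate libraries (adjusted p = 0.11).

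**Figure D5:**
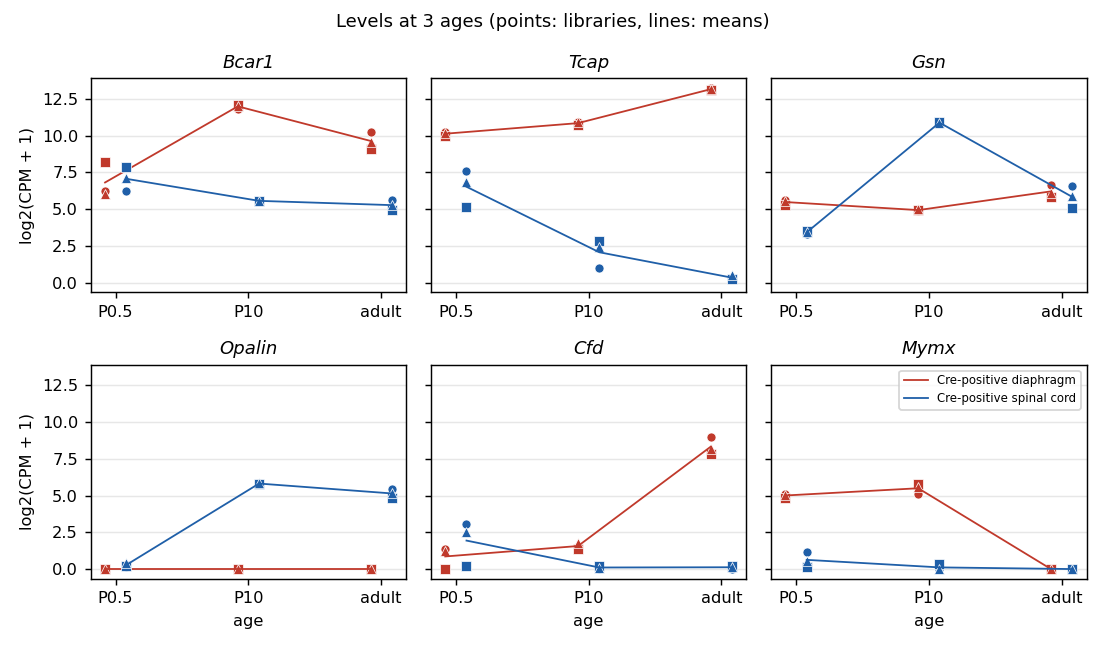
Level of Bcar1, Tcap, Gsn, Opalin, Cfd and Mymx as log2(CPM + 1) (y axis) at P0.5, P10 and in adults (x axis) in Cre-positive diaphragm and spinal cord, with 1 point per library and a line through the group means. Opalin rises in cord from P0.5 to P10, Cfd rises in adult diaphragm, and Mymx is at 0 in both tissues in adults.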

How the data were processed

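RNA purified by the HA tag from synapse-enriched diaphragm and from spinal cord was sequenced as total RNA libraries, per the labels' protocols. The submitters' processing notes name the mm10 build, RSEM 1.2.12 and Bowtie2 2.2.5. The authors deposited 1 table of CPM values, in which each library sums to 1000000 over 18845 genes, of which 18497 are protein-coding in RefSeq; other details of the counting are not given in the sources used here.

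Values were tested as log2(CPM + 1) with limma 3.58.1 (trended, robust, Benjamini-Hochberg adjusted p under 0.05), on genes that reached 1 CPM in 3 or more of 24 libraries, with 8 group means (Cre-positive diaphragm and cord at 4 ages). The Cre comparison used the 24 diaphragm libraries instead. Log2 changes of low genes are understated by the pseudocount of 1. The fit was also run on simulated reads with few changed genes. That setting is unlike this comparison, so the run cannot show how reliable the counts here are. Reads recovered from the CPM steps were accepted in 35 of 36 libraries (100% of values whole within 0.1 read) and tested with edgeR 4.0.16 and DESeq2 1.42.0. The P0.5 Cre-positive diaphragm replicate 3 was not accepted and was left out of these, though 100% of its values were whole too. Tests on recovered reads that use P0.5 therefore rest on fewer diaphragm libraries. edgeR called 4793 genes higher in diaphragm and 5103 higher in cord.

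An intermediate library is the 1 of a group best written as a nonnegative sum of the other 2. Same-numbered diaphragm and cord libraries did not deviate together (correlations 0.010, 0.008 and 0.011). Floors are 3 reads per library and cover counting error only. Genes were named by rule: the 10 largest differences per direction among called, non-overlapping genes averaging 10 CPM or more; from each of 27 lists up to 4 called members in its main and up to 2 in its other direction with the 2 most abundant; 8 fixed genes and both members of the paralog pairs; and the 5 largest changes per direction between ages. Predicted gene models were left out, and not every gene that the rule names is reported here. The gene lists and rules were chosen with earlier results of these data known. Alternatives were another pseudocount, no filter, RLE and quantile scaling, the other tools, a fit of only the groups compared, the replicate block and leaving out libraries.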

Additional observations from a re-analysis of the deposited data

Results flagged for a closer look

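The difference between diaphragm and spinal cord changed between ages by a limma test of the change itself, and the 5 largest changes in each direction among genes that averaged at least 10 CPM in 1 of the groups, with predicted gene models left out, are given here on the log2(CPM + 1) scale. From P0.5 to P10 it rose by 6.67 for Bcar1, an adaptor of focal adhesions, by 5.97 for Pigt, which attaches lipid anchors to proteins, by 5.52 for Retnla, a secreted protein of macrophages and fat, by 5.48 for Reg3b, an antimicrobial lectin, and by 5.36 for Ldb1, a cofactor of LIM transcription factors. For Reg3b this was a loss in cord, from 42.7, 41.8 and 46.9 CPM at P0.5 to 0, 0 and 0.0754 CPM at P10, while P10 diaphragm had 0.0712, 0 and 0 CPM. For Retnla diaphragm had 0.456, 0 and 0.303 CPM at P0.5 and 112, 75.3 and 96.8 CPM at P10, but its change was -0.18 with edgeR (adjusted p = 0.851) and 0.14 with DESeq2 (adjusted p = 0.976).

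Over the same interval the difference changed by -8.01 for Gsn, an actin-severing protein, by -6.89 for Camp, an antimicrobial peptide of neutrophils, by -6.24 for Thrsp, a regulator of fat synthesis, by -6.21 for Trf, transferrin, and by -5.66 for Itih3, a plasma protein of liver. The P0.5 diaphragm replicate 2 stood above the others for Camp, at 37.8, 223 and 29.3 CPM, for Trf, at 103, 733 and 67.4 CPM, and for Itih3, at 21.4, 169 and 13.4 CPM.

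From P10 to adult the difference rose by 6.74 for Cfd, the adipocyte protease adipsin, by 6.32 for Gsn, by 5.86 for Adig, an adipocyte protein, by 5.22 for Tnnc2, fast troponin C, and by 5.15 for Bdh1, an enzyme of ketone metabolism. It changed by -5.38 for Mymx, the fusion peptide of myoblasts, by -5.19 for Ahsg, a plasma protein of liver, by -5.06 for Ptgds, which makes prostaglandin D2, by -4.94 for Prnd, a relative of the prion protein, and by -4.88 for Alb. Without the intermediate libraries Tnnc2 (adjusted p = 0.11) and Alb (adjusted p = 0.11) lost the call, and the other 18 changes kept it. With edgeR the change of Mymx was not called.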

How the results depend on the processing

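The count of genes that differed between tissues stayed within 1.5 times its main value under every alternative run, from 8306 without the intermediate libraries to 11827 without the filter on low values, and from 10196 to 10552 leaving out 1 library of the 2 groups. The age changes fell from 6889 to 2864 and from 5092 to 945 without the intermediate libraries, with 6158 to 7696 and 4304 to 5341 leaving out 1 library. The Cre comparison, 201 in the main test, gave 365 without the filter, 46 with edgeR, 451 with DESeq2, 1196 in a fit of only its groups, 0 without the intermediate libraries and 44 to 155 leaving out 1 library; the cause was not tested. With the replicate number as a block the 4 counts were 10807, 6878, 5103 and 165, and the numbers do not pair the libraries. With sarcomere and erythroid genes left out of the total, the difference in the share of respiratory chain genes went from 8.77 to 13.1 percentage points and of ribosomal protein genes from 1.197 to 2.96. Of 192 called genes followed through the alternatives, 168 kept direction and call in all 15 alternatives, 22 lost the call in at least 1 and 6 reversed. Reversed log2 differences with RLE size factors, quantile normalization, edgeR and DESeq2 were, in that order, 0.50, 0.04, 0.72 and 0.50 for Eef1a1, 0.39, 0.41, 0.61 and 0.39 for Ndufv2, 0.06, 0.46, 0.28 and 0.07 for Rpl22, 0.07, 0.43, 0.29 and 0.08 for Thrsp and 0.01, 0.25, 0.73 and 0.58 for Reg3b. With RLE, edgeR and DESeq2 they were 0.15, 0.37 and 0.15 for Ndufb8. With quantile normalization alone they were -1.37 for Cox7c, -0.23 for Uqcr11 and 0.07 for Pcna. Leaving out 1 library gave -0.13 to 0.11 for Atp2a2, with -0.13 and -0.00 reversed, and -0.03 to 0.03 for Reg3b, with 0.01 reversed, and Reg3b was 0.05 without the intermediate libraries. Neither was called in the main test. Retnla's change to P10 was -0.18 with edgeR. The median of the mesothelial, cartilage and gut list turned to 0.07 (quantile), 2.73 (only the groups compared) and 0.19 (without the intermediate libraries). Exact tests of 3 against 3 libraries cannot go below p = 0.1, and genes with a few reads in diaphragm have no reliable fold.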
